A study of Mus musculus with 8 samples.

Results

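Retinoic acid (RA)-treated fibroblasts were compared at 72 h and at 12 h of treatment, to follow how the response developed after its first hours. The comparison took 5 of the 8 libraries of the series, all of those made from RA-treated cells, and the 12671 of 22200 genes whose mean value over these 5 libraries was at least 10. The other 9529 genes were not tested.

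Per the labels, the cells were immortalised mouse embryonic fibroblasts of genotype TAF4-/- on a C57BL/6 background. All groups share this labelled loss of TAF4, which belongs to the TFIID complex at promoters. The study's methods describe its TAF4-null line as 1 derivative of floxed fibroblasts made with Cre recombinase. The groups were RA for 72 h (2 libraries), RA for 12 h (3 libraries) and no treatment with a time label of 12 h (3 libraries). The untreated libraries entered only the estimate of the spread, and their values are given for orientation. No untreated library at 72 h was analysed here, so a longer exposure to RA cannot be told apart from longer growth in culture. Nothing in the labels says that replicates came from separate cultures, so the p-values measure the spread between these libraries, which may be technical. All library titles carry cl1, which resembles the study's name for its TAF4-expressing line. The genotype labels were followed.

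The deposited values had been quantile normalised, so each library has the same distribution of values and its depth is unknown. Since such a value is set by a gene's rank within its library, the most abundant genes move in steps and can share a value between libraries. Each change is a difference of log2(value + 1), which understates the change of genes near the floor of 1. In whole cultures, fewer cells that make a transcript and less RNA per cell cannot be told apart. Spearman's correlation was 0.9900 between the 72 h libraries and between 0.9901 and 0.9942 among the 12 h libraries. The libraries also differed within groups along an axis holding 50.1% of the within-group variance, which put 72 h replicate 2 with 12 h replicate 3 (side 1) and 72 h replicate 1 with 12 h replicates 1 and 2 (side 2).

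RA is the acid form of vitamin A and binds the receptors RARα, β and γ, which pair with retinoid X receptors on DNA and switch on target genes, among them those that store or degrade the ligand itself. Fibroblasts make the collagens, glycoproteins and proteoglycans of connective tissue and the proteases that remodel it. Cells in culture copy their DNA in S phase and then, in G2 and M, make the kinases, kinesins and kinetochore proteins that divide the chromosomes, and the 2 sets of genes are switched on at separate times.

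Per the genotype label the gene Taf4a is deleted in these cells. Taf4a was measured at 1296.5, 1055 and 1403 in untreated libraries, at 984, 1113 and 1171 at 12 h and at 1449 and 1369.6 at 72 h. The change of 0.38 ± 0.13 (SE) on the log2 scale did not pass the test (adjusted p = 0.127). Its related gene Taf4b was at 99, 53.1 and 73 at 12 h and 49.5 and 50.9 at 72 h (adjusted p = 0.252). Which part of Taf4a the reads came from is not given in the sources used here, so its level checks neither the deletion nor the genotype label.

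The cell type label was held against marker genes. Of 12 fibroblast markers, 9 were tested, with a median change of -0.46 on the log2 scale. In limma 3 passed the adjusted p with a lower value, of which Col3a1 was called (11.1%), and 1 with a higher value. The 3 were Col3a1, Col1a2 and the receptor gene Pdgfra (-0.51 ± 0.12, adjusted p = 0.0293), and the 1 was its relative Pdgfrb (0.51 ± 0.12, adjusted p = 0.0231), both receptor genes being chosen after their values were seen. Vim, the intermediate filament of mesenchymal cells, was at 93377.5, 82396 and 93377.5 at 12 h and at 102782 and 102782 at 72 h, among the most abundant transcripts, and did not pass the test (adjusted p = 0.528). The markers Thy1, Dcn and Lum stayed under 10 in every RA-treated library. Low values, for these and for the markers below, do not show that a transcript was absent. Of the 47 cytosolic ribosomal protein genes in the table, 20 had a mean under 10 at 12 h and 19 at 72 h. Summed over the fibroblast list, values ran from 237871.5 to 248558.2 at 12 h and from 216597.4 to 222440.6 at 72 h. Markers of other cell types were low: the 8 epithelial markers summed to between 28.2 and 45.0 at 12 h and between 41.1 and 41.4 at 72 h, the 6 endothelial markers to between 56.6 and 79.1 and between 64.4 and 71.2, the 7 macrophage and leukocyte markers to between 70.6 and 83.2 and between 72.4 and 87.5, and the 6 skeletal muscle markers to between 28.9 and 50.2 and between 19.8 and 45.4. Few of these markers were high enough to be tested (1 epithelial, 3 endothelial, 2 macrophage and leukocyte and 1 skeletal muscle), and in limma 0 of those passed the adjusted p or had an unadjusted p under 0.05. The 8 cartilage and bone markers summed to between 492.0 and 640.6 at 12 h and between 436.0 and 580.5 at 72 h, most of it from Runx2, and 0 of the 2 tested had an unadjusted p under 0.05.

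Between 12 h and 72 h, 20 of 63 tested mitotic genes were called higher. Called lower were 6 of 31 collagen genes and 8 of 54 matrix glycoprotein and proteoglycan genes. Most of the transcriptome stayed within a narrow range. Calling a gene took an adjusted p (limma, Benjamini-Hochberg over all tested genes) under 0.05 together with a 2-fold or larger change. In all, 191 genes were called (1.51% of those tested), of which 98 were higher at 72 h (0.773%) and 93 were lower (0.734%). Without the 2-fold minimum 742 genes passed, 371 in each direction. The median change of all tested genes was -0.002 on the log2 scale, and its 5th and 95th percentiles were -0.55 and 0.56. The median change was 1.19 for the genes called higher and -1.30 for those called lower. Called genes were found at all levels: 1.53% of genes with a mean of 10 to 50, 1.74% at 50 to 200, 1.37% at 200 to 1000 and 1.38% at 1000 and above. At least 4-fold changes were seen for 7 genes called higher and 11 called lower. Values of 12 h and 72 h libraries did not overlap for any of the 191 called genes, against 37.4% of all tested genes. For 128 of the 191 the change reached 2-fold on side 1 and on side 2 taken alone. The sides were drawn from these same values, and side 1 holds 1 library of each RA group, so the count is no separate check.

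**Figure D1:**
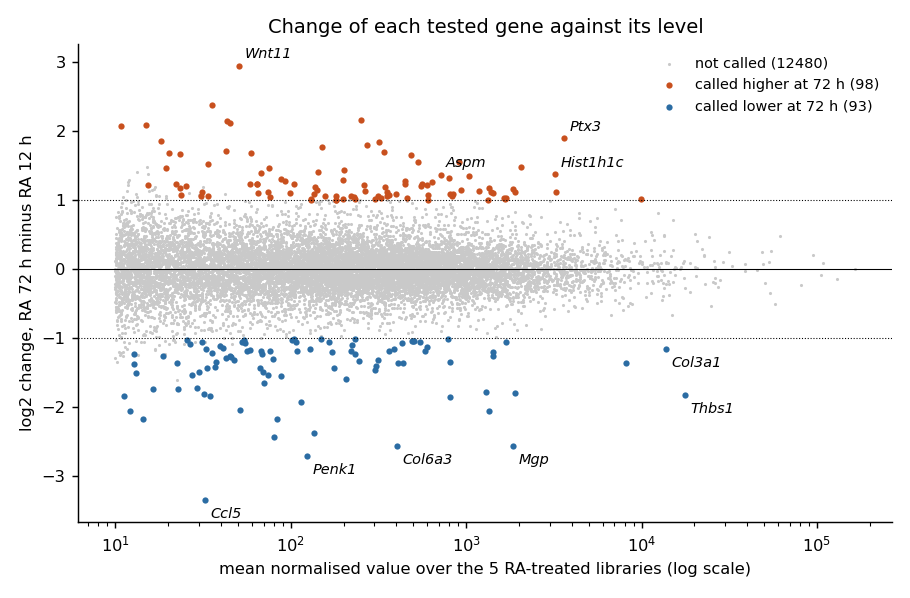
Change of each tested gene between RA 12 h and RA 72 h (vertical axis, log2) against its mean normalised value over the 5 RA-treated libraries (horizontal axis, log scale), with the 98 genes called higher in orange, the 93 called lower in blue and dotted lines at 2-fold. Called genes are spread over the whole range of levels, from Ccl5 at a log2 change of -3.35 to Wnt11 at 2.95.

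Across 19 functional gene lists, the mitotic list held the most genes called higher (20), and the collagens (6) and the matrix glycoproteins and proteoglycans (8) the most called lower. Of the 191 called genes, 58 belonged to a list, cell type markers included, and 133 to none. Lists are described by their counts and medians, against the median of -0.002 and the shares of 0.773% and 0.734% over all tested genes.

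**Figure D2:**
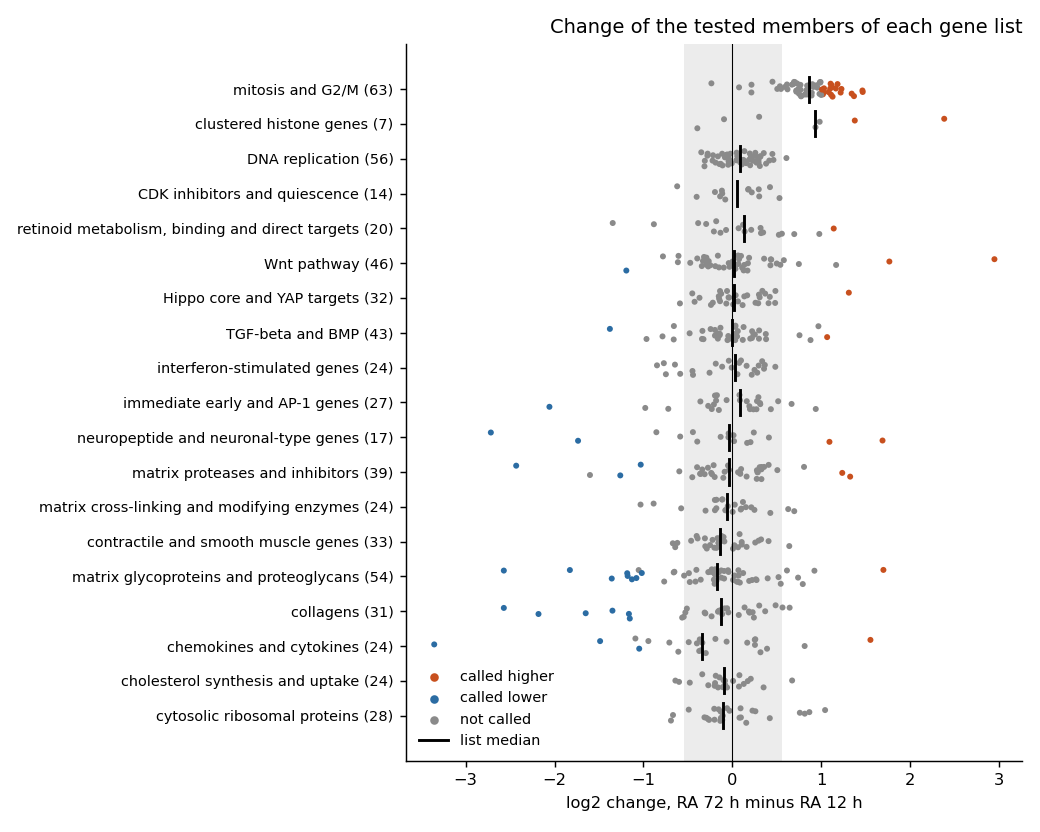
Log2 change from RA 12 h to RA 72 h of the tested members (points; number in brackets) of 19 gene lists, with the list median as a black bar and the range from the 5th to the 95th percentile of all tested genes (-0.55 to 0.56) in grey. Most of the mitotic list lies to the right of the grey range, with a median of 0.86, while the DNA replication list is centred at 0.09.

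Genes of mitosis and G2 rose together between 12 h and 72 h. Of 65 symbols, 64 were in the table and 63 were tested, and 62 of the 63 had a positive change. The adjusted p was passed by 56, all of them higher, against 371 higher among all 12671 tested genes. Of the 63, 20 were called (31.7%, against 0.773% of all tested genes). The median change was 0.86 on the log2 scale. Without each library in turn, between 15 and 23 members were called higher and 0 lower. In library terms, 61 of the 63 genes in 72 h replicate 1 and 59 in replicate 2 were above every 12 h library. For the DNA replication list these counts were 25 and 29 of 56. Over all tested genes, 37.4% did not overlap between the RA groups, in either direction. The list median of the untreated libraries lay at 0.04, 0.00 and -0.07 from the 12 h mean on the log2 scale, close to the 12 h libraries themselves (-0.05, 0.04 and 0.01) and below both 72 h libraries (0.85 and 0.90).

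**Figure D3:**
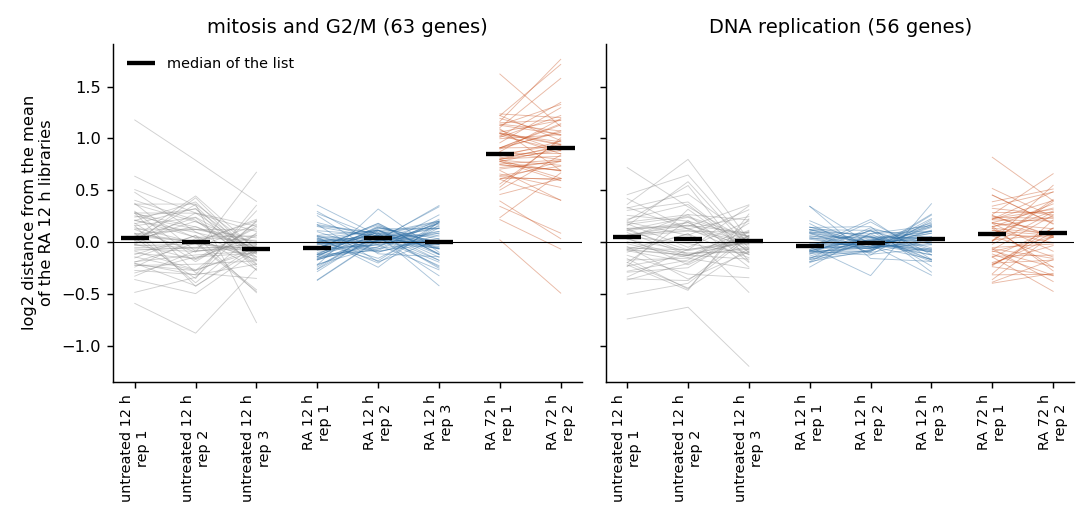
Distance of each gene (thin lines, 1 per gene, joined within a group) from its own mean over the RA 12 h libraries, on the log2 scale, in each of the 8 libraries, for the mitotic list (left) and the DNA replication list (right), with list medians as black bars. Medians of the 72 h libraries are 0.85 and 0.90 for mitosis and 0.08 and 0.09 for DNA replication.

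The 6 largest called changes of the list included regulators and machinery of chromosome segregation and of cytokinesis. Aspm, which organises spindle poles, was at 452, 467 and 383 at 12 h and 1332 and 937.5 at 72 h, a change of 1.37 ± 0.19 (SE, adjusted p = 0.000906). Kif20a, a kinesin of cytokinesis, went from 544, 648 and 728 to 1368 and 1900.4, a change of 1.34 ± 0.17 (adjusted p = 0.000479). Both 72 h libraries exceeded every 12 h library for both genes, which are moderately abundant. Nuf2, a subunit of the NDC80 complex that holds microtubules at the kinetochore, went from 239.9, 301 and 331 to 630.4 and 725 (adjusted p = 0.00399), and Depdc1a from 393, 348 and 427 to 915 and 892.5 (adjusted p = 8.72e-05). The call of Nuf2 rested on 72 h replicate 2, without which its adjusted p was 0.0567.

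Cdc20, the activator of the anaphase-promoting complex, was at 38.4, 43.1 and 47.75 at 12 h and 101 and 143 at 72 h, a change of 1.47 ± 0.30 (adjusted p = 0.0104). Plk1, the polo-like kinase of mitotic entry, was low throughout, at 14, 11.25 and 7.75 and then 25.25 and 38.75, a change of 1.46 ± 0.36 (adjusted p = 0.0289). Plk1 was also at 25.5, 19.25 and 14.4 in the untreated libraries, which overlap the 72 h values. These 2 low genes carried the weakest calls of the 6. Without 12 h replicate 1 or 72 h replicate 2 the adjusted p of Cdc20 was 0.0508 and 0.147, and without 12 h replicate 2 or 3 or 72 h replicate 1 or 2 that of Plk1 was 0.0863, 0.0794, 0.0727 and 0.297. The call of Plk1 was also lost with a pseudocount of 10 (0.99, under 2-fold) and without the filter on low values (adjusted p = 0.0856).

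Members below 2-fold moved in the same direction. Among genes chosen after their values were seen, Cdc2a, the kinase that drives mitosis and is now called Cdk1, went from 11518, 13684 and 11139 to 20918 and 18496.5 (log2 change 0.70 ± 0.18, adjusted p = 0.0331). Its partner cyclin Ccnb1 went from 819, 794.5 and 672 to 1155 and 1005 (adjusted p = 0.0454), and Foxm1, a transcription factor of G2 genes, from 804, 828 and 779.5 to 1375 and 1293 (adjusted p = 0.0049). Mki67, which encodes the proliferation antigen Ki-67, went from 119.75, 139.75 and 115 to 264 and 229 (adjusted p = 0.00201). Those 4 genes all rose without reaching 2-fold. The 1 member with a negative value was Mybl2, at 79.9, 105 and 131 and then 105 and 73 (adjusted p = 0.631).

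Promoters of mitotic genes are known for the cell cycle homology region, a short element bound by the MuvB complex, and for CCAAT boxes, bound by NF-Y. RefSeq promoter windows (build GRCm38.p6, 250 bases before to 50 after each start, a different build from that of the expression data) were searched on both strands for the letters TTTGAA, the core of that region, and for CCAAT, and a gene with several starts counted as holding a motif when any window did. Windows were matched for 52 of the 63 tested members. The first motif was found in 34 of them (65.4%) and the second in 40 (76.9%). Over the 17 matched of the 20 called members these were 12 (70.6%) and 14 (82.4%). Of all 27025 genes with a window, 20.2% held the first and 41.1% the second motif, and matches that share a base were counted for both. In the DNA replication list, of which 44 tested genes were matched, the shares were 18.2% and 65.9%, so the second motif was frequent in both lists. A match is a description of the letters and not a measured site. For 4 called genes on chromosomes 4, 7, 3 and 1, the 120 bases before the start are shown because they let a reader see where the elements lie, with both motifs and their reverse complements in capitals, 5′ to 3′ on the gene's strand. They are at chr4:118437344-118437463 (minus strand) for Cdc20, chr7:122159315-122159434 (plus strand) for Plk1, chr3:159495313-159495432 (plus strand) for Depdc1a and chr1:139454653-139454772 (plus strand) for Aspm.
Cdc20: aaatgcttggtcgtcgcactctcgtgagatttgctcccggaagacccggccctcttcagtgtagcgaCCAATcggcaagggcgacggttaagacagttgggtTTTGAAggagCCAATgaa
Plk1: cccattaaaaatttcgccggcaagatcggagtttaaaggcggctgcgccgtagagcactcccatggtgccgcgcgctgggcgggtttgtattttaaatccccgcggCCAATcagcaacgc
Depdc1a: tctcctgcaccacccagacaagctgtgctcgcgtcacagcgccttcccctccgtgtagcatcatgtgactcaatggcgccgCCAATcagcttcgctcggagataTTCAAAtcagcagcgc
Aspm: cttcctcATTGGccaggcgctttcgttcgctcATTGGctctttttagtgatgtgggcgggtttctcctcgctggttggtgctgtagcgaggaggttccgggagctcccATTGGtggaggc
In Cdc20 the TTTGAA element begins 18 bases before the start, between CCAAT boxes that begin 53 and 8 bases before it. In Depdc1a the reverse element begins 16 bases and the CCAAT box 39 bases before the start. In Plk1 and Aspm the stretch shown holds CCAAT boxes only, and TTTGAA begins at bases 31 and 7 after the start.

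Genes of DNA replication stayed within a narrower range than the mitotic genes. All 58 symbols were in the table, 56 were tested, 33 had a positive and 23 a negative change, and 0 passed the adjusted p of limma in either direction (9 higher and 3 lower at an unadjusted p under 0.05). The list's median was 0.09 on the log2 scale, and its members lay between -0.35 and 0.61. The largest change was that of Tk1, the thymidine kinase of S phase, at 972, 752 and 613 at 12 h and 1349.9 and 1009 at 72 h (0.61 ± 0.19, adjusted p = 0.0904). The replication-linked repressor E2f8 was at 106, 87.5 and 142 and then 132 and 174 (adjusted p = 0.333), and Tyms, which makes thymidylate, at 449, 447 and 501 and then 609 and 663 (adjusted p = 0.0898). For Tk1 and Tyms the 72 h values were above the 12 h values, and for E2f8 they overlapped. No test of one list against the other was made.

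Genes listed for cell cycle arrest and quiescence were likewise not called. This list holds inhibitors of cyclin-dependent kinases and genes of quiescence, and also cyclin D2. Of its 14 tested members, 7 had a positive and 7 a negative change, with a median of 0.05. In limma 0 passed the adjusted p (0 higher and 1 lower at an unadjusted p under 0.05). Cdkn1b, which encodes the inhibitor p27, was at 21.5, 28.4 and 31 at 12 h and 35.1 and 43.1 at 72 h (adjusted p = 0.28). The 1 member lower at the unadjusted p was cyclin D2 (Ccnd2), which is not an inhibitor. Ccnd2 was at 264, 270.4 and 245.5 and then 209 and 136 (adjusted p = 0.0768), and the antiproliferative gene Btg2 at 51.9, 52.4 and 48 and then 58.4 and 80 (adjusted p = 0.28).

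Of the histone genes, 2 linker histone genes were called higher. Hist1h1d (ENSMUSG00000052565, mm9 chr13:23646901-23650721) was at 12.25, 14 and 11.5 at 12 h and at 69.6 and 69.6 at 72 h, a change of 2.38 ± 0.26 on the log2 scale (adjusted p = 0.000154). Hist1h1c went from 2015, 2125 and 1775 to 5417.5 and 4813.5, a change of 1.38 ± 0.12 (adjusted p = 4.04e-05). Untreated libraries were at 19.9, 18.4 and 21.6 for Hist1h1d and at 2075, 1876 and 2314 for Hist1h1c, so both were higher at 72 h than in any other library. Only 18 of the 57 clustered histone symbols were in the table and 7 were tested, of which these 2 were called higher and 0 lower (median 0.94). The adjusted p of limma was passed by 3 of the 7, all of them higher. Per the labels the reads came from polyadenylated RNA, so these values cover only the polyadenylated transcripts of each gene.

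Some collagen genes fell by more than 2-fold, and most of the family was not called. Of 40 collagen symbols, 38 were in the table and 31 were tested, and 6 were called lower (19.4%, against 0.734% of all tested genes) and 0 higher. The median change of the 31 was -0.12, and 11 of them had a positive value. The count was 6 without each library in turn.

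Col6a3, the α3 chain of the beaded-filament collagen VI (ENSMUSG00000048126, mm9 chr1:92663435-92740529), was at 1438.5, 1218 and 1381 in untreated libraries, at 617, 540.5 and 656 at 12 h and at 104 and 97.25 at 72 h. It fell by 2.57 ± 0.12 (SE) on the log2 scale between the RA time points (adjusted p = 3.46e-07). The 3 groups formed separate steps, each lower than the one before. Col6a2, the α2 chain of the same collagen, was at 498, 489 and 506 at 12 h and 231 and 212 at 72 h, a change of -1.16 ± 0.14 (adjusted p = 0.000251), and its untreated values of 752, 942 and 1042 were higher still. Col6a1 was not analysed here.

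The fibril-forming collagens were mixed, with Col3a1, Col11a1 and Col5a3 called lower. Col3a1, the chain of collagen III and a fibroblast marker, was at 15625, 19652 and 17474 at 12 h and 7665 and 8071 at 72 h, a change of -1.15 ± 0.13 (adjusted p = 0.000159). Col11a1 went from 1078, 1084 and 1033.5 to 419 and 416 (-1.35 ± 0.11, adjusted p = 2.25e-05), and the collagen V chain Col5a3 from 102, 82.1 and 107 to 33.75 and 26.75 (-1.65 ± 0.20, adjusted p = 0.000305). For all 3 genes the 72 h libraries were below every 12 h and every untreated library. Among genes chosen after their values were seen, the collagen I chain Col1a2 passed the adjusted p without reaching 2-fold (-0.53 ± 0.12, adjusted p = 0.0218). Its partner Col1a1 was tied at 65327.5, 65327.5 and 65327.5 in the 12 h libraries, near the top of the scale, and at 51846 and 40456 at 72 h (adjusted p = 0.143). Col5a2 was at 45846, 40456 and 50218 and then 53627 and 53627 (adjusted p = 0.458).

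Col7a1 and Col12a1 showed other courses. Col7a1, the collagen of anchoring fibrils, was at 91.4, 76.9 and 78.4 in untreated libraries, at 139.6, 116 and 108 at 12 h and at 23 and 28.9 at 72 h, a change between the RA time points of -2.18 ± 0.20 (adjusted p = 4.04e-05). The 72 h libraries were below those of both other groups. Col12a1, chosen after its values were seen, was the 1 collagen gene past the adjusted p with a higher value, at 479.9, 485 and 417.5 and then 749 and 691 (0.64 ± 0.12, adjusted p = 0.00554).

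Matrix glycoproteins and proteoglycans showed the same mixed pattern. Of 54 tested members, 8 were called lower (14.8%, against 0.734% of all tested genes) and 1 higher, and the median change was -0.17. Without 72 h replicate 2, 5 were called lower. Mgp, the matrix Gla protein that restrains calcification, was at 3308, 3830.0 and 2337.5 in untreated libraries, 2306, 2536 and 3484 at 12 h and 395.5 and 532 at 72 h, a change of -2.57 ± 0.21 (SE, adjusted p = 2.25e-05). Thbs1, which encodes thrombospondin 1, was among the most abundant transcripts of untreated cells at 47208, 53627 and 36832, and went from 24403, 25192 and 25192 at 12 h to 6948 and 7089 at 72 h (-1.83 ± 0.15, adjusted p = 2.25e-05). Mgp values of the untreated and 12 h groups overlapped, whereas Thbs1 stepped down from group to group.

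The other called members included secreted proteins of several families. Spp1, which encodes osteopontin, was at 5051, 4813.5 and 6707 in untreated libraries, 12091, 11672 and 8647 at 12 h and 4574 and 3805 at 72 h, a change of -1.36 ± 0.17 (adjusted p = 0.000423). It was highest at 12 h and lowest at 72 h, with no overlap between the groups. Periostin (Postn) went from 764, 802 and 722 to 358 and 337 (-1.13 ± 0.13, adjusted p = 0.000222). The small proteoglycan asporin (Aspn) went from 734, 801 and 723 to 390.1 and 280.25 (-1.18 ± 0.17, adjusted p = 0.00109), and Tgfbi from 78.75, 67.6 and 78.4 to 25.75 and 40.9 (-1.18 ± 0.21, adjusted p = 0.00552). In all 3 genes both 72 h libraries were the lowest of the 5. Without 72 h replicate 2 the change of Aspn was -0.94, under 2-fold, and without 72 h replicate 1 the adjusted p of Tgfbi was 0.0836. With a pseudocount of 10 the change of Tgfbi was -0.99, under 2-fold.

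Fbln7, which encodes the adhesion protein fibulin 7, moved the other way. It was at 37.25, 26.9 and 25.75 in untreated libraries, 187, 191.5 and 160.25 at 12 h and 556 and 613 at 72 h, a change of 1.70 ± 0.18 between the RA time points (adjusted p = 0.000152). Each group lay above the one before.

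**Figure D4:**
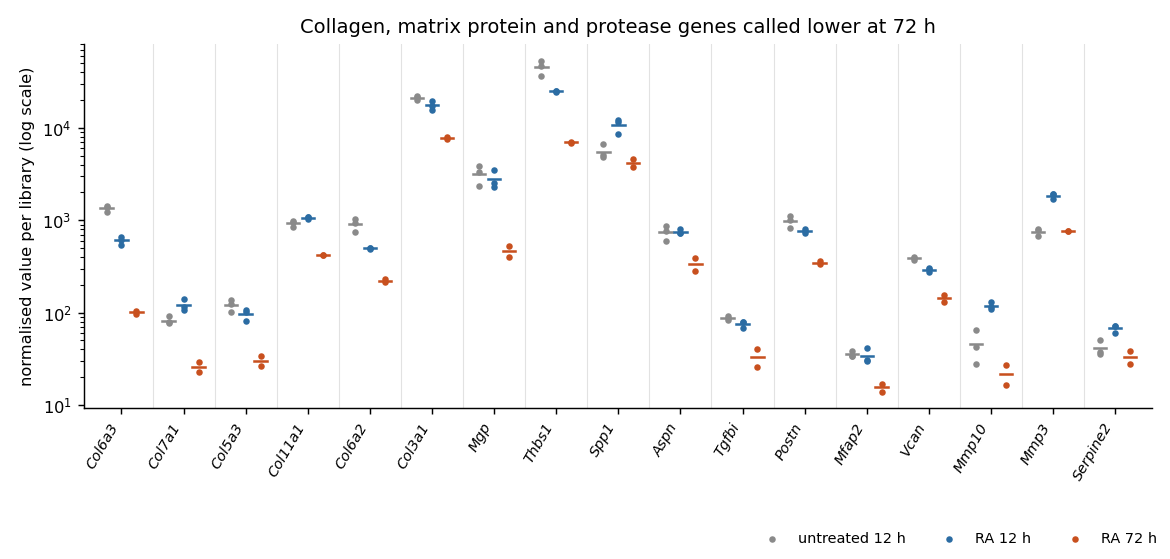
Normalised value per library (points, log scale; bars are group means) of the collagen, matrix protein and protease genes called lower at 72 h, in untreated cells (grey), RA 12 h (blue) and RA 72 h (orange). None of the 17 genes overlaps between the RA groups, and Spp1, Mmp3, Mmp10, Col7a1, Col11a1 and Serpine2 are highest at 12 h without overlap, as for Mmp3 at 1918, 1920.0 and 1716.

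Matrix proteases and their inhibitors were called in both directions. Of 39 tested, 2 were called higher and 3 lower, with a median of -0.04. Mmp3, the protease stromelysin 1, was at 668, 784 and 805 in untreated libraries, 1918, 1920.0 and 1716 at 12 h and 768 and 774 at 72 h, a change of -1.26 ± 0.12 (SE, adjusted p = 4.24e-05). Mmp10, stromelysin 2, was at 27.75, 65.1 and 42.75, 129, 116 and 111 and 16.5 and 26.9 in the same groups, a change of -2.43 ± 0.31 (adjusted p = 0.00045). The 12 h libraries were the highest for both, and the 72 h libraries lay within the untreated range for Mmp3 and below it for Mmp10. The protease inhibitor gene Serpine2 also followed this course, at 37.5, 35.25 and 50.1, 72.4, 71.4 and 60.25 and 38.4 and 27.75 (-1.03 ± 0.23, adjusted p = 0.0203). Its call was lost without 12 h replicate 1 or 2 or 72 h replicate 2, with adjusted p of 0.0891, 0.0913 and 0.225. It was also lost with a pseudocount of 10 (-0.86) or the within-group side as a term (-0.97), both under 2-fold, and without the filter on low values (adjusted p = 0.0602).

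The stromelysin promoters are known for an AP-1 site, the element bound by Fos and Jun proteins. TGANTCA, the letters of that site, was searched on both strands in the same RefSeq windows (GRCm38.p6) and was found in 8.97% of all 27025 genes. Among matched genes it was found in 11.3% of those called lower and 7.89% of those called higher. Whether the site has a part in this course was not tested. Spp1, Col7a1, Serpine2 and Aldh3a1 were also highest at 12 h, and their promoters are not shown. The 120 bases before the start are shown for both stromelysin genes because they share this course. They are at chr9:7502222-7502341 for Mmp10 and chr9:7445702-7445821 for Mmp3, both on the plus strand, with the match in capitals.
Mmp10: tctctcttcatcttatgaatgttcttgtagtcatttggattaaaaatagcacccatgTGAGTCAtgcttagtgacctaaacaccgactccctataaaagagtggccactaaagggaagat
Mmp3: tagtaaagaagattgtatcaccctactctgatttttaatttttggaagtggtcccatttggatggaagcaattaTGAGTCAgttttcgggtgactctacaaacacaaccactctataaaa
The match begins 63 bases before the start in Mmp10 and 46 bases before it in Mmp3. Of the immediate early and AP-1 genes themselves, 27 were tested, 0 were called higher and 1 lower, and the median was 0.09 (2 lower without 12 h replicate 3 or 72 h replicate 1, and 0 without 72 h replicate 2). The 1 called was Klf2, a zinc finger factor listed among the immediate early genes, which was low at 14.75, 19.1 and 19.1 at 12 h and 4.875 and 2.375 at 72 h (-2.06 ± 0.38, adjusted p = 0.00633). Its adjusted p was 0.0851 without 72 h replicate 2.

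Prss35, a serine protease-like gene, and Adamts9, an aggrecan-degrading protease, were the 2 called higher. Prss35 was at 35.1, 11.9 and 16.5 in untreated libraries, 547, 449.75 and 495.5 at 12 h and 1308 and 1183 at 72 h, a change of 1.32 ± 0.31 between the RA time points (adjusted p = 0.0216). Adamts9 went from 36.1, 40.4 and 36 to 82.6 and 97.1 (1.24 ± 0.22, adjusted p = 0.00493). Neither overlapped between the RA groups. Prss35 lost its call without any 1 of the 5 RA-treated libraries, with adjusted p from 0.0559 to 0.149, and Adamts9 without 72 h replicate 2 (0.0853). Prss35 also lost it without the filter on low values (0.0579) and without the variance trend (0.105).

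The chemokine genes called, Ccl5 and Ccl2, were lower at 72 h. Of 24 tested chemokines and cytokines, 3 were called lower and 1 higher, and the median change was -0.35. The adjusted p of limma was passed by 6 with a lower and 2 with a higher value. Summed over the list, values were higher at 72 h, from 22078.5 to 23770.2 at 12 h and from 27882.3 to 29578.3 at 72 h. Ccl5, a chemokine for T cells and monocytes, had the largest fall of all tested genes. It was at 88.5, 151 and 82.4 in untreated libraries, 43, 45 and 65.6 at 12 h and 4.75 and 3.375 at 72 h, near the floor, a change of -3.35 ± 0.30 (SE, adjusted p = 4.09e-05). The monocyte chemokine Ccl2 was at 1986, 1696 and 2063, 511, 776.5 and 573 and 305 and 284.5 in the same groups (-1.05 ± 0.16, adjusted p = 0.00167), and its 12 h values were already far below the untreated ones. Without 12 h replicate 2 the change of Ccl2 was -0.87, under 2-fold, and without 72 h replicate 2 it fell just short of 2-fold (adjusted p = 0.0297). Lcn2, the acute-phase protein lipocalin 2, went from 105, 87.5 and 89.75 to 37.9 and 28.4 (-1.49 ± 0.19, adjusted p = 0.000479).

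Il1rn, the antagonist of the interleukin 1 receptor, was the member called higher. It was at 96.9, 112 and 152 in untreated libraries, 313.5, 291 and 292 at 12 h and 903 and 855 at 72 h, a change of 1.55 ± 0.17 between the RA time points (adjusted p = 0.000152). Each group lay above the one before. Of 24 tested interferon-stimulated genes 0 were called or passed the adjusted p of limma (3 higher and 5 lower at an unadjusted p under 0.05), with 12 positive and 12 negative changes and a median of 0.02. Ifi44, the member with the largest change, was at 40.4, 46.9 and 36.6 and then 31.4 and 15.9 (adjusted p = 0.11), and it was called lower without 72 h replicate 1 (-1.32, adjusted p = 0.0441).

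Among retinoid genes Dhrs3 rose further, Crabp2 fell, and most others did not pass the test. Of 20 tested genes of retinoid metabolism, binding and direct response, 1 was called higher and 0 lower, with a median of 0.13 (2 higher without 12 h replicate 3, and 1 lower without 72 h replicate 1). Dhrs3, the reductase that turns retinal back to retinol, was at 75, 56 and 42.75 in untreated libraries, 599, 647 and 653 at 12 h and 1382 and 1409 at 72 h, a change of 1.14 ± 0.18 (SE, adjusted p = 0.00249). The steps from group to group did not overlap. Crabp2, the binding protein that carries RA to its receptors, was at 834, 869 and 776, 2445, 2469 and 2268 and 1229 and 1368 in the same groups, and fell between the RA time points by 0.88 ± 0.11 (adjusted p = 0.000294) without reaching 2-fold. It was chosen after its values were seen, as was Rdh11, a retinal reductase, at 66.4, 59 and 75.25 and then 137 and 127 (adjusted p = 0.00945).

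Other targets of the receptors had higher values at 72 h that did not pass the test. Cyp26b1, the hydroxylase that degrades RA, was at 63.6, 73 and 40.4 in untreated libraries, 3251.5, 3367 and 4620.1 at 12 h and 4476.5 and 6306 at 72 h (0.52 ± 0.23, adjusted p = 0.233). The receptor gene Rarb was at 123.5, 175 and 159 and then 242 and 205 (0.56 ± 0.24, adjusted p = 0.226), and Tgm2, tissue transglutaminase, at 4048, 4376 and 3705 and then 7256 and 5884 (0.70 ± 0.20, adjusted p = 0.0608). The RA groups overlapped for Cyp26b1 and not for Rarb and Tgm2.

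Wnt signalling genes included 2 of the largest rises. Of 46 tested members, 2 were called higher and 1 lower, and the median change was 0.02. Wnt11, a ligand mostly of non-canonical Wnt signalling (ENSMUSG00000015957, mm9 chr7:105983622-106003705), had the largest rise of all tested genes. It was at 12.5, 15 and 7.625 in untreated libraries, 7.875, 12.1 and 21.6 at 12 h and 93.25 and 119.6 at 72 h, a change of 2.95 ± 0.40 (SE, adjusted p = 0.000652). Rspo3, a secreted amplifier of Wnt signals, was at 79.6, 81.6 and 57.25, 67.4, 78.75 and 81.75 and 233.5 and 289 in the same groups (1.77 ± 0.20, adjusted p = 0.000167). For both genes the 12 h values overlapped those of untreated cells and the 72 h values lay above all others.

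Sfrp2, a secreted Wnt antagonist, fell. It was at 993, 875 and 793.5 in untreated libraries, 505, 434 and 467 at 12 h and 192 and 217 at 72 h, a change of -1.19 ± 0.13 between the RA time points (adjusted p = 0.000159). The ligand Wnt9a was at 81.5, 82 and 45.25, 403, 422 and 453 and 237 and 258, and its 72 h values lay below the 12 h values without passing the test (-0.78 ± 0.22, adjusted p = 0.0545). Wnt5a and its receptor Ror2, chosen after their values were seen, passed the adjusted p without reaching 2-fold, at log2 changes of 0.58 ± 0.13 (adjusted p = 0.0182) and 0.75 ± 0.14 (adjusted p = 0.00549).

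Hippo and TGF-β pathway genes were called at most once in each direction. Of 32 tested Hippo components and YAP targets, 1 was called higher, with a median of 0.02. It was Lmcd1, a LIM domain cofactor, at 43.1, 58.1 and 64 at 12 h and 129 and 144 at 72 h (1.31 ± 0.21, adjusted p = 0.00255). Wwc1, which encodes the Hippo activator Kibra, was at 1085, 1026 and 937 and then 1238 and 999 (0.13 ± 0.15, adjusted p = 0.712), with overlapping groups. Of 43 tested TGF-β and BMP genes, 1 was called higher and 1 lower, with a median of -0.001 (2 higher without 12 h replicate 3). Gdf5, a BMP family ligand, went from 160.5, 144 and 157 to 314 and 331.5 (1.07 ± 0.15, adjusted p = 0.00102). The BMP antagonist chordin (Chrd) was low, at 19.5, 13.25 and 19.25 and then 5.25 and 6.75 (-1.38 ± 0.32, adjusted p = 0.0225), and its call was lost without 12 h replicate 1 or 3 or either 72 h replicate, with adjusted p from 0.0674 to 0.163. The call of Chrd was also lost with a pseudocount of 10 (-0.77) and without the filter on low values (adjusted p = 0.067).

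Neuropeptide and neuronal-type genes changed in both directions, with 2 of 17 tested called higher and 2 lower (median -0.04). Penk1, which encodes preproenkephalin, was at 601, 606 and 658 in untreated libraries, 181, 210.4 and 171 at 12 h and 24.75 and 30.75 at 72 h, a change of -2.72 ± 0.15 (SE, adjusted p = 8.84e-07). Stmn2, a microtubule-destabilising stathmin, was at 75.4, 66.9 and 44.25, 17.6, 25.75 and 25.75 and 4.625 and 8.00 in the same groups (-1.74 ± 0.33, adjusted p = 0.00672). Both stepped down from group to group, and the adjusted p of Stmn2 was 0.0846 without 72 h replicate 1. The related Stmn4 went from 28.1, 26.9 and 38.6 to 101 and 102 (1.69 ± 0.28, adjusted p = 0.00277), and the adhesion molecule L1cam from 246, 291 and 286 to 587 and 582 (1.09 ± 0.13, adjusted p = 0.000231). The 6 neuronal markers in the table summed to between 109.2 and 132.8 in untreated libraries, 81.1 and 88.9 at 12 h and 69.4 and 76.1 at 72 h, with Syp, Snap25 and Nefl at 11 or less in every RA-treated library. Of the 3 tested, Gap43 passed the adjusted p, lower (-0.85 ± 0.22, adjusted p = 0.0343). The part of neuronal-type cells in these changes was not tested.

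Adipocyte markers also had higher sums at 72 h. The 7 markers summed to between 211.6 and 291.0 in untreated libraries, 428.4 and 470.9 at 12 h and 660.9 and 663.4 at 72 h, and 3 of them were tested. Fabp4, a fatty acid binding protein, went from 172, 155 and 144 to 214.5 and 264 (0.60 ± 0.16, adjusted p = 0.042), and Pparg, the nuclear receptor of fat cells, was at 249, 217.5 and 228 and then 399 and 318 (0.62 ± 0.17, adjusted p = 0.0561). Defining markers of mature fat cells, Adipoq and Cfd, were between 1 and 2.5 in all RA-treated libraries, at or near the floor.

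Of the 12 largest rises, 9 were in no list. Ptx3, the secreted pattern recognition molecule pentraxin 3, was the most abundant, at 4209, 3976 and 5117 in untreated libraries, 1835, 1859.6 and 1506.5 at 12 h and 6736 and 6173 at 72 h (1.90 ± 0.13, SE, adjusted p = 6.84e-06). It was lowest at 12 h and highest at 72 h. Ddx25, a helicase known from the testis, was at 3.375, 3.375 and 6.5, 107, 95.4 and 110.5 and 521 and 427 in the same groups (2.17 ± 0.26, adjusted p = 0.000263), a step up at each time. Cdo1, the dioxygenase that begins cysteine breakdown, went from 17.5, 19.9 and 19.25 to 79.25 and 90.75 (2.11 ± 0.24, adjusted p = 0.000192). Mt1, the metal-binding metallothionein 1, went from 156, 136 and 174 to 474 and 646 (1.84 ± 0.20, adjusted p = 0.000152), and Rasl11a, a small Ras-like GTPase, from 131, 149 and 126 to 482 and 463 (1.80 ± 0.15, adjusted p = 2.25e-05). The 12 h values of Mt1 overlapped the untreated values of 155, 196 and 126, and those of Rasl11a overlapped 134, 146 and 168.

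The remaining 4 rises were of low genes whose calls depended on single libraries. C230078M08Rik was at 8.375, 19.25 and 28.9 at 12 h and 63.75 and 95.4 at 72 h (2.15, adjusted p = 0.0101, and 0.13 without 72 h replicate 2). Serpinb8, an inhibitor of serine proteases, was at 1.875, 4.875 and 6.5 and then 20.5 and 19.9 (2.08, adjusted p = 0.0289, and 0.108 and 0.0782 without 12 h replicate 1 or 2). RP23-141N19.12 was at 5.875, 10.5 and 8.00 and then 44.75 and 21.75 (1.85, adjusted p = 0.018, and 0.0775 and 0.253 without 12 h replicate 1 or 72 h replicate 1). Dub1, a deubiquitinase with near-identical copies among which reads may be split, was at 3.875, 5.75 and 8.375 and then 23 and 33.5 (2.09, adjusted p = 0.0475), and lost its call without any 1 of the 5 RA-treated libraries (0.0568 to 0.326). Without the variance trend the adjusted p was 0.088 for Dub1 and 0.0553 for C230078M08Rik, and without the filter on low values it was 0.0934 for Dub1.

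**Figure D5:**
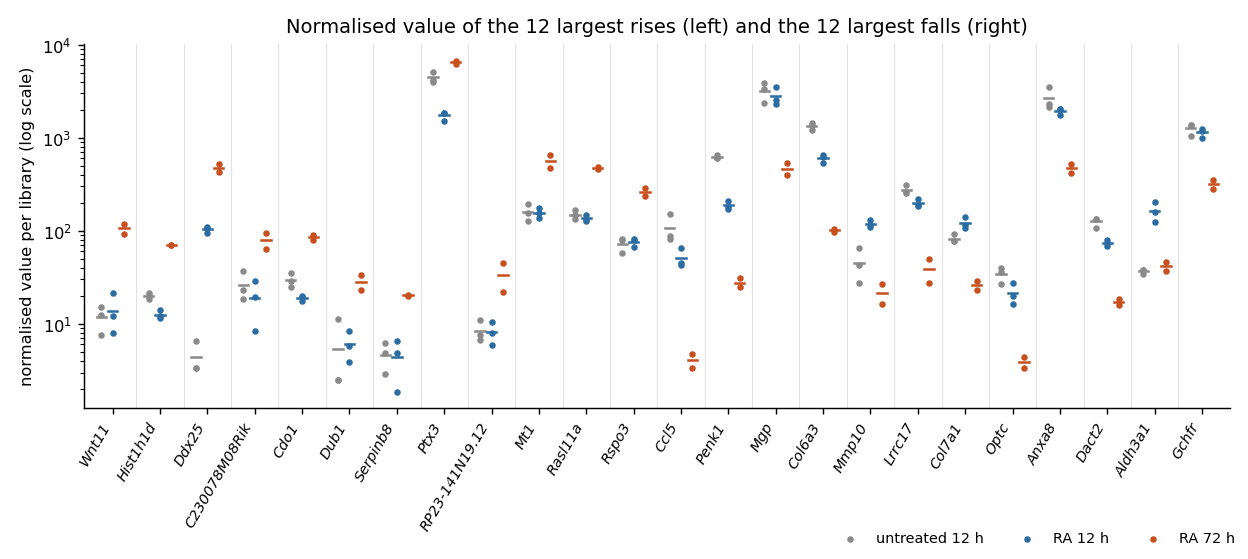
Normalised value per library (points, log scale; bars are group means) of the 12 largest rises and the 12 largest falls from RA 12 h to RA 72 h among genes with a mean of at least 20 in the higher group, in untreated cells (grey), RA 12 h (blue) and RA 72 h (orange). The 24 genes were picked among called genes whose RA groups do not overlap. Untreated values of Ptx3 (4209, 3976 and 5117) lie between the RA groups, and those of Aldh3a1 lie near the 72 h values.

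The 12 largest falls held 6 genes outside the lists. Anxa8, a membrane-binding annexin, was the most abundant, at 2141, 2288.5 and 3484 in untreated libraries, 2032.5, 2047 and 1750.25 at 12 h and 515 and 420.0 at 72 h (-2.06 ± 0.18, SE, adjusted p = 4.04e-05). Gchfr, the feedback regulator of tetrahydrobiopterin synthesis, went from 995, 1185 and 1249.75 to 278 and 351.5 (-1.86 ± 0.15, adjusted p = 2.25e-05). Against untreated values of 1375, 1372 and 1053, Gchfr at 12 h overlapped, Anxa8 at 12 h lay just under its untreated values, and both were far lower at 72 h. The secreted leucine-rich repeat proteins Lrrc17 and opticin (Optc) went from 221, 186 and 189.5 to 27.75 and 50 (-2.38 ± 0.21, adjusted p = 4.04e-05) and from 20, 16.5 and 27.6 to 4.375 and 3.375 (-2.18 ± 0.33, adjusted p = 0.00163). Dact2, a Dishevelled-binding protein, went from 74.4, 79.6 and 68.75 to 18.4 and 16.1 (-2.04 ± 0.19, adjusted p = 5.83e-05). Optc and Dact2 ended under 20 in both 72 h libraries, as did the means of 25 of the 93 genes called lower.

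Aldh3a1, an aldehyde dehydrogenase, had the course of the stromelysins. It was at 37.9, 37.9 and 34 in untreated libraries, 204, 161 and 124 at 12 h and 36.5 and 46.6 at 72 h, a change of -1.93 ± 0.23 between the RA time points (adjusted p = 0.000232). The 72 h values lay near the untreated values and far below the 12 h values.

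Further lists held no called gene. Of 24 tested enzymes that cross-link or modify the matrix, 1 passed the adjusted p, lower: the procollagen-processing protease gene Tll1, at 259, 237 and 248 at 12 h and 134 ± 5.04 (mean ± SD, n = 2) at 72 h (-0.89 ± 0.13, adjusted p = 0.000968). Pcolce2, which enhances procollagen processing, was at 34.75, 24 and 22.25 and then 14.9 and 10.4 (adjusted p = 0.0682), and was called lower without untreated replicate 3 (-1.03, adjusted p = 0.049) or without the variance trend (adjusted p = 0.0458). Of 33 tested contractile and smooth muscle genes, 3 passed, all lower (median -0.14): Myl9 and Fhl1, chosen after their values were seen, and the small heat shock protein gene Hspb1, at 319.9, 346 and 301 and then 172 and 245.5 (adjusted p = 0.0371). Of 24 tested genes of cholesterol synthesis and uptake, 0 were called in limma (1 higher and 4 lower at an unadjusted p under 0.05), and the list median was -0.09. Of 28 tested cytosolic ribosomal protein genes, 1 passed, Rpl5, chosen after its values were seen, at -0.67 ± 0.16 (adjusted p = 0.0231; list median -0.11).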

How the data were processed

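RNA of 8 mouse fibroblast libraries was sequenced (3 untreated, 3 after RA for 12 h and 2 after RA for 72 h). The authors deposited 1 table of normalised reads per Ensembl gene, and its values are another unit than a count: the sorted values are the same in all 8 columns, which is what quantile normalisation gives, all values under 1000 are multiples of 0.125 (tolerance 0.001) and none is below 1. Per the labels the reads were DpnII tags of polyadenylated RNA on mm9, whereas in the study's methods the authors fragmented the RNA, aligned the reads with Tophat, quantified genes with Cufflinks and normalised with DESeq. Which account holds for the table could not be settled. The methods also give another late time. The study's results give 72 h, as do the labels and columns, and 72 h was followed. The authors' log2 ratio columns hold ratios between group averages and were not used. Depth is unknown, so no counting interval is given.

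Values were taken as log2(value + 1), keeping genes that averaged 10 or more across the 5 RA-treated libraries (1 line without a gene was left out). A model over all 8 libraries in 3 groups, without a replicate block, was fitted with limma 3.58.1 in R 4.3.3, with a variance trend. Tests were two-sided and adjusted by Benjamini-Hochberg over all tested genes, with calls at an adjusted p below 0.05 and a change of 2-fold or more. The procedure was also run on simulated data with noise independent between genes, without the within-group axis of these libraries. That run is therefore no check on the calls reported here. Genes were named by rule: the 12 largest called rises and falls without overlap and with a mean of at least 20 in the higher group, a panel of genes, up to 6 called members of each list in each direction and, in lists with none called, up to 3 with the largest change. Members and lists were chosen with earlier results of these data known. Alternatives changed the pseudocount, the filter, the fold minimum, the scaling, the libraries fitted, the variance trend, the replicate block and the within-group axis. Coordinates are those of the GENCODE M1 annotation of mm9, matched by Ensembl identifier for 96.7% of genes, and promoter windows are from RefSeq (GRCm38.p6). The values of 1 gene are not reported here.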

Additional observations from a re-analysis of the deposited data

How the results depend on the processing

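The count of 191 called genes (98 higher, 93 lower) was set most by the fold minimum: 742 genes passed without one (371 higher, 371 lower) and 42 with a 3-fold minimum (18 higher, 24 lower). With a pseudocount of 10 the count was 146 (145 shared with the 191), without a filter 173 (160 shared), with a mean of at least 20 it was 173 (173 shared), with the 5 RA-treated libraries alone 203 (191 shared), with the within-group side as a term 228 (179 shared), without a variance trend 184 (177 shared) and with equal medians 191 (191 shared). Without 1 library at a time it ran from 150 to 212 (higher 69 to 105, lower 76 to 107). Of 99 named genes, 73 kept their direction and their call in every alternative fit that tested them (83 were tested with a mean of at least 20, 97 without 72 h replicate 1 and 98 without 72 h replicate 2 or 12 h replicate 2) and 26 changed one of them in at least 1, the other fold minimums left aside.

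With the replicate block 172 genes were called, 158 of them among the 191. Deviations of the same-numbered 12 h and 72 h libraries correlated at 0.254 for number 1 and -0.177 for number 2. With 2 libraries at 72 h, their deviations from the group mean are exact opposites. These values therefore cannot decide whether equal numbers are pairs, and the main fit did not take them as pairs. Under the block the calls of Dub1, Serpinb8, RP23-141N19.12, Plk1, Serpine2 and Chrd were lost, with adjusted p from 0.0548 to 0.124. Under the block the log2 change was -0.05 for Pecam1 and 0.02 for Nefm, each the opposite sign of the value without it. Without 1 library at a time the sign also turned for genes that were not called, with values from -0.02 to 0.29 for Wwc1, from -0.13 to 0.29 for Cdh1, from -0.16 to 0.17 for Pecam1, from -0.33 to 0.13 for Cd14, from -0.16 to 0.42 for Nefm, from -0.95 to 0.45 for Des, from -0.38 to 0.60 for Cebpa and from -0.36 to 0.05 for Runx2. The cause was not tested.

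The 72 h group holds 2 libraries, and the low genes among the calls rest on values near the floor. There was no untreated library at 72 h, and quantile normalisation removes any shift shared by all genes.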
